A study of Mus musculus with 6 samples.

Results

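The 8 genes described here encode ligands of the tumour necrosis factor (TNF) superfamily: Tnf, Lta, Ltb, Tnfsf9, Tnfsf15, Tnfsf13b, Tnfsf12 and Tnfsf14. They were taken by symbol from a table of 23282 symbols, and all 8 have a single RefSeq transcript there. Poly(A) RNA was sequenced from peritoneal macrophages of female C57BL/6 mice, cells drawn into the cavity by thioglycollate. The cells carried control siRNA (siCtl), siRNA to the histone methyltransferase gene Smyd5 (siSmyd5) or siRNA to the histone demethylase gene Phf2 (siPhf2) for 48 hours, and then received vehicle or 100 ng/ml KLA for 4 hours. KLA is Kdo2-lipid A, the part of bacterial lipopolysaccharide that activates the receptor TLR4. All 6 groups, vehicle included, thus carry an siRNA, and each is 1 library, with no replicate; the labels do not give the age of the mice or say whether cells of several mice were pooled. Of the 8 ligands, 4 (Tnf, Tnfsf9, Tnfsf15 and Tnfsf12) had a mean of at least 10 reads over the 6 libraries and were tested, as part of a fit to 7995 genes.

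TNF superfamily ligands are made as trimers anchored in the membrane, and several are cut off the cell as soluble cytokines. They bind receptors of the TNF receptor superfamily, which signal through TRAF adaptors or death domains to the transcription factor NF-kB, to MAP kinases or to caspases. In macrophages Tnf is a classic early target of TLR4 signalling, controlled at its promoter, in the stability and translation of its mRNA, and by shedding of the protein.

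Reads assigned to transcripts numbered 919338 to 1429509 in the siCtl and siSmyd5 libraries, 577054 in the siPhf2 vehicle library and 420149 in the siPhf2 KLA library. The ribosomal precursor Rn45s took 66.7% and 71.6% of the siPhf2 vehicle and KLA reads and at most 1.2% elsewhere, which left 192420 and 119144 other reads, against at least 910906. Levels are therefore given as CPM, reads per 1e6 after TMM scaling (trimmed mean of M values). The tag totals printed in the headers of the siCtl and siPhf2 columns give whole reads only when exchanged between these labels, so the arms are named by their labels. Smyd5 had 44, 29, 9, 20, 3 and 0 reads in the siCtl, siSmyd5 and siPhf2 libraries, vehicle before KLA. Phf2 had 113, 120, 52, 34, 29 and 8 in the same order. With TMM scaling Smyd5 under the siSmyd5 label did not pass (averaged log2 fold change -0.64, standard error 0.42, edgeR adjusted p = 0.384). Smyd5 was below siCtl with vehicle but not with KLA, at 14.2 CPM in siSmyd5 against 12.9 in siCtl. The siSmyd5 comparisons thus also rest on the label. Phf2 was not lower under the siPhf2 label with TMM scaling (averaged log2 fold change 0.90, standard error 0.35, edgeR adjusted p = 0.0969). Scaled to the library total Phf2 was lower there (-1.24, adjusted p = 0.00285), as with the authors' tag totals (-1.60, adjusted p = 0.000107), scalings under which 91.9% and 96.1% of all genes tested were lower. All 8 macrophage markers with a row had reads in every library, at a summed 3606 to 5379 CPM, while the B cell list summed to 5.29 to 16.3 CPM, the T cell list to at most 3.97 CPM, the NK cell list to at most 12.8 CPM and the neutrophil list to at most 24.5 CPM. Mesothelial and stromal markers were present in every library at a summed 209 to 485 CPM, most of it from the collagen genes Col1a1 and Col3a1. The labels name no separate animal or culture for any library, so a p-value here reflects only how these libraries vary, which may be technical, and a counting interval only the counting error.

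Tnf (NM_013693, chr17:35336336-35338941 on mm9, minus strand) had 28 reads in the siCtl vehicle library, 13 in siSmyd5 vehicle and 31 in siPhf2 vehicle, and 4929, 2118 and 729 in the corresponding KLA libraries. Scaled, its level was 11.5, 8.59 and 126 CPM with vehicle and 2187, 1505 and 5257 CPM with KLA. All 3 KLA libraries lay above all 3 vehicle libraries, and within each agent the siPhf2 library was the highest with TMM scaling. In the deposited signal, scaled to tag totals, siPhf2 KLA was below siCtl KLA, at 4711 against 9901. After KLA Tnf supplied most of the reads of the 8 ligands: 88.2% of 5590 in siCtl (exact 95% binomial interval 87.3 to 89.0), 82.2% of 2578 in siSmyd5 (80.6 to 83.6) and 93.6% of 779 in siPhf2 (91.6 to 95.2). With vehicle its share was 11.1% (7.51 to 15.7), 6.81% (3.67 to 11.4) and 51.7% (38.4 to 64.8).

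The promoter windows of the RefSeq reference (GRCm38.p6, a later build than the mm9 of the deposited table) cover 6 of the 8 ligands; Tnfsf9 and Tnfsf12 are not among them. Shown are the 250 bases before the start of Tnf and Tnfsf15, which rose with KLA, and of Ltb, the neighbour of Tnf that stayed near the detection limit. They lie at chr17:35202008-35202257 (Tnf, minus strand), chr4:63745060-63745309 (Tnfsf15, minus strand) and chr17:35194257-35194506 (Ltb, plus strand), each written 5′ to 3′ with motif matches in capitals.
Tnf: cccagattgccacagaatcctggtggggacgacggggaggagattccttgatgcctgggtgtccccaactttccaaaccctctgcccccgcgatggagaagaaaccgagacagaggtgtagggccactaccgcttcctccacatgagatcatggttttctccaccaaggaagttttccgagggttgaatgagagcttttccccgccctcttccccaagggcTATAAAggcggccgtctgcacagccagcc
Tnfsf15: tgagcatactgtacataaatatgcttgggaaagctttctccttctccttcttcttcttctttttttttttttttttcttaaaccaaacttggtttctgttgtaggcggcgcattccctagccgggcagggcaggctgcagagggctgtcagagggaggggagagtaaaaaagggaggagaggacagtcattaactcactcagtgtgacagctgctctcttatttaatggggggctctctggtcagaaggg
Ltb: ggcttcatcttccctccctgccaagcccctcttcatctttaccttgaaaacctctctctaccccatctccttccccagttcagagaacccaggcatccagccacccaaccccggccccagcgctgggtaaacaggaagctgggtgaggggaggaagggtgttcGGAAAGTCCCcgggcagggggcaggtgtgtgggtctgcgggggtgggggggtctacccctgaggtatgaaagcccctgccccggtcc
In Tnf the capitals mark TATAAA, 29 to 24 bases before the start, and in Ltb a match to the NF-kB consensus on the minus strand, 87 to 78 bases before the start. The Tnfsf15 window holds none of the 4 motifs searched on both strands, namely the NF-kB consensus, AP-1 (TGANTCA), the interferon response element (GAAA, any 2 bases, GAAA) and TATAAA. Among all 32851 windows of this length, 3.90% hold the NF-kB consensus, 6.75% AP-1, 2.98% the interferon element and 12.4% TATAAA, which was added to the search after the data were seen. Of the other ligands, Lta has TATAAA 167 to 162 bases before its start, Tnfsf14 an AP-1 match at 160 to 154, and 1 of the windows of Tnfsf13b both an AP-1 match at 127 to 121 and an interferon element at 16 to 7. A match is a string of letters and not a shown binding site.

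Tnfsf9 (NM_009404, chr17:57244808-57247180, plus strand) encodes the ligand of the costimulatory T cell receptor Tnfrsf9. It had 15, 6 and 3 reads with vehicle and 415, 297 and 25 reads with KLA in the siCtl, siSmyd5 and siPhf2 libraries. Its level was 6.15, 3.97 and 12.2 CPM with vehicle and 184, 211 and 180 CPM with KLA, so the KLA libraries all lay higher. With TMM scaling they were close to each other, the siPhf2 level with a 95% counting interval of 117 to 266 CPM. In the deposited signal siPhf2 KLA was below siCtl KLA, at 162 against 834. The first bases of Tnfsf9 overlap Gm11110 on the other strand, which had at most 9 reads in any library.

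Tnfsf15 (NM_177371, chr4:63385637-63406147, minus strand) encodes a costimulatory cytokine that binds the death domain receptor Tnfrsf25. It had 0 reads in the siCtl and siSmyd5 vehicle libraries and 1 in siPhf2 vehicle, against 100, 44 and 21 reads with KLA. That is 44.4, 31.3 and 151 CPM with KLA, where the siPhf2 library was again the highest with TMM scaling; in the deposited signal it was below siCtl, at 136 against 201. In the vehicle libraries 3 reads, the floor used here, equal 1.23 CPM in siCtl, 1.98 CPM in siSmyd5 and 12.2 CPM in siPhf2.

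Tnfsf12 (NM_011614, chr11:69499742-69509600, minus strand) encodes the ligand of Tnfrsf12a, a receptor linked to tissue repair. It had 198, 168 and 25 reads with vehicle and 133, 112 and 3 reads with KLA. Its level was 81.2, 111 and 102 CPM with vehicle and 59.0, 79.6 and 21.6 CPM with KLA, so all KLA libraries lay below all vehicle libraries, with siSmyd5 KLA just under siCtl vehicle. The reads of Tnfsf12 are uncertain, because the transcript BC096441 covers Tnfsf12 and its neighbour Tnfsf13 on the same strand and had 330, 358 and 48 reads with vehicle and 237, 222 and 8 with KLA.

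The other 4 ligands were at or near the detection limit. Lta (NM_010735, chr17:35340110-35342296), the secreted lymphotoxin of lymphocytes, had at most 1 read in any library. Ltb (NM_008518, chr17:35331452-35333250), which anchors lymphotoxin in the membrane, had 4, 2 and 0 reads with vehicle and 6, 4 and 0 with KLA. Tnfsf13b (NM_033622, chr8:10006633-10035999), the B cell survival factor BAFF, had 5, 2 and 0 reads with vehicle and 5, 1 and 1 with KLA. Tnfsf14 (NM_019418, chr17:57328915-57333609), a ligand of Tnfrsf14 and Ltbr, had at most 1 read in any library. With 3 reads worth 12.2 and 21.6 CPM in the siPhf2 libraries, levels such as those of Ltb in siCtl, 1.64 and 2.66 CPM, could not have been detected there.

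**Figure D1:**
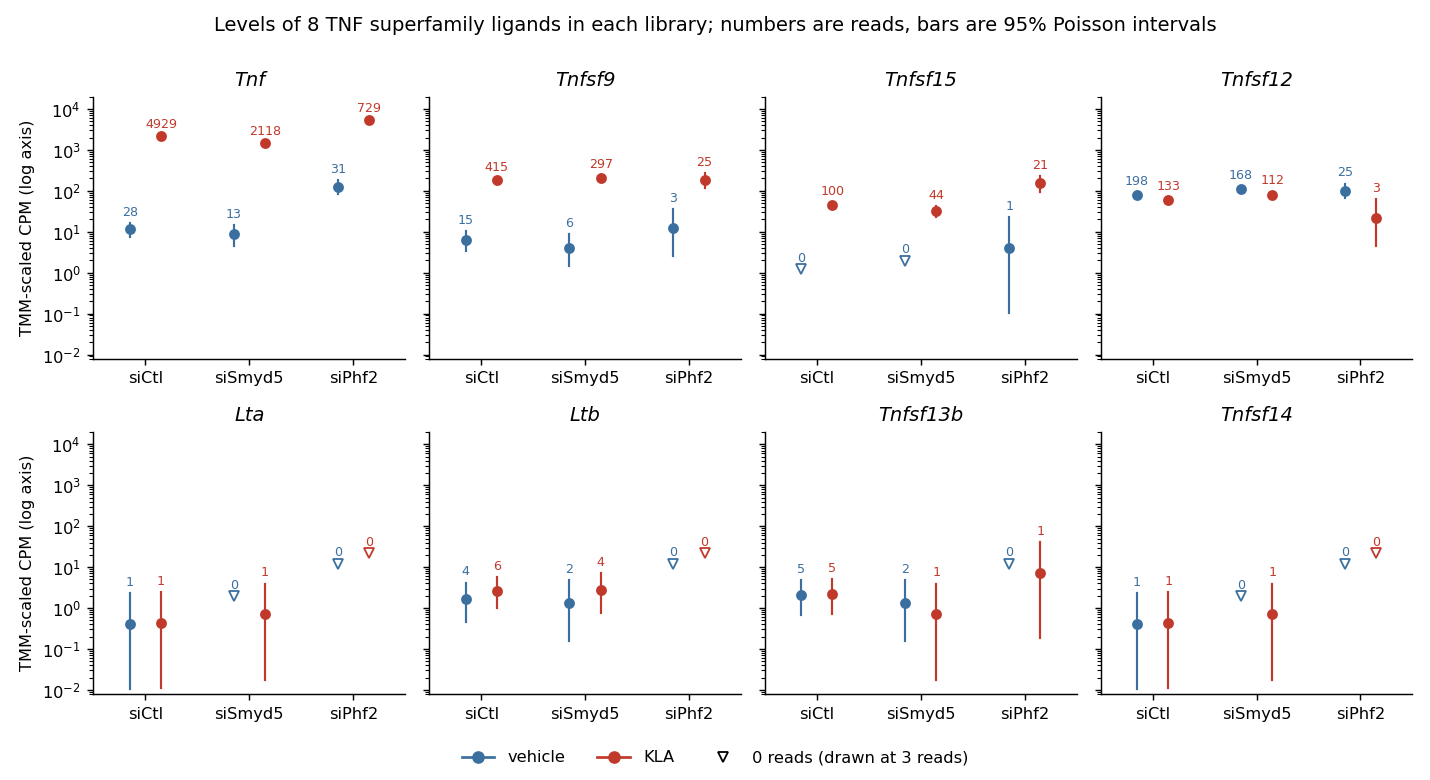
Level of each of the 8 ligands in TMM-scaled CPM (log axis) by siRNA label, vehicle in blue and KLA in red, 1 point per library with its 95% Poisson interval and its reads printed above; open triangles are 0 reads drawn at the level of 3 reads. Tnf, Tnfsf9 and Tnfsf15 are higher in all 3 KLA libraries than in any vehicle library, Tnfsf12 is lower in all 3, and Lta, Ltb, Tnfsf13b and Tnfsf14 stay at 6 reads or fewer.

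Levels can be compared between genes only per length of transcript. In the siCtl vehicle library Tnfsf12 was the highest of the ligands at 48.1 CPM per kilobase, followed by Tnf at 7.12 and Tnfsf9 at 5.01, and the counting intervals of the last 2, from 28 and 15 reads, overlap. In the siCtl KLA library the order was Tnf at 1355 CPM per kilobase, Tnfsf9 at 150, Tnfsf12 at 35.0 and Tnfsf15 at 7.62. In the siPhf2 vehicle library Tnf stood at 78.1 and Tnfsf12 at 60.2 CPM per kilobase, from 31 and 25 reads, with overlapping intervals.

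The first comparison asked which ligands KLA changed over the 3 siRNA arms. Tnf, Tnfsf9 and Tnfsf15 rose and no ligand fell. In an additive fit of siRNA and agent (edgeR quasi-likelihood, Benjamini-Hochberg adjustment over 7995 genes, 2 residual degrees of freedom), Tnf rose by a log2 fold change of 6.77 (standard error 0.34, adjusted p = 3.10e-11). Tnfsf15 rose by 7.11 (0.57, adjusted p = 1.32e-08), a fitted value that rests on 1 vehicle read. Tnfsf9 rose by 5.05 (0.28, adjusted p = 5.40e-11). Tnfsf12 was at -0.58 (0.21, adjusted p = 0.0641) and did not pass. These are 3 of the 4 ligands tested, where 11.2% of all genes tested rose and 4.6% fell; Tnfsf9 and Tnfsf15 passed the filter on low reads only through their KLA libraries, so the share of ligands that rose is a description. Scaled to DESeq2 size factors, to the total or to the total without Rn45s, or without the siPhf2 vehicle or KLA library, Tnfsf12 passed as lower as well (adjusted p 0.0110 to 0.0397).

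Within each arm the KLA response was read as the ratio of the KLA to the vehicle library, called by size when at least 2-fold with a 95% counting interval that excludes equality. Tnf was 190-fold higher with KLA in siCtl (95% interval 132 to 287), 175-fold in siSmyd5 (102 to 329) and 41.7-fold in siPhf2 (29.1 to 61.9). The siPhf2 ratio lay below the other two, and its interval did not overlap theirs; it starts from the vehicle level of 126 CPM. Under the other scalings and a length correction it was 32.3 to 45.9, against 167 to 199 in siCtl, and exchanging the names of these arms makes both values change places. Tnfsf9 was 29.9-fold higher in siCtl (17.9 to 54.0), 53.2-fold in siSmyd5 (24.2 to 146) and 14.8-fold in siPhf2 (4.51 to 76.5, from 3 vehicle reads), with overlapping intervals.

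Tnfsf15 was at least 36.1-fold higher with KLA in siCtl and at least 15.8-fold in siSmyd5, against the floor of 3 reads per library. In siPhf2 its ratio was 37.3, with an interval of 5.99 to 1541 that reflects a single vehicle read. Tnfsf12 stood at 0.727 of vehicle in siCtl (0.579 to 0.910) and 0.717 in siSmyd5 (0.559 to 0.916), both short of the size bound, and at 0.213 in siPhf2 (0.0411 to 0.698, from 3 KLA reads), which passed it. Over the 3 arms 9 ligand ratios, those of the same 3 ligands in each arm, were thus called higher and 1 lower. Tnfsf9 and Tnfsf15 passed the filter on low reads only through their KLA libraries, so the count of 9 is a description. Of all genes tested, 7.44% (siCtl), 9.14% (siSmyd5) and 8.46% (siPhf2) were called higher and 3.19%, 4.03% and 6.88% lower. All 3 KLA libraries lay above all 3 vehicle libraries for 10.7% of genes tested and below them for 8.67%. Differences between the arms were not tested, since each ratio is 1 library against 1.

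**Figure D2:**
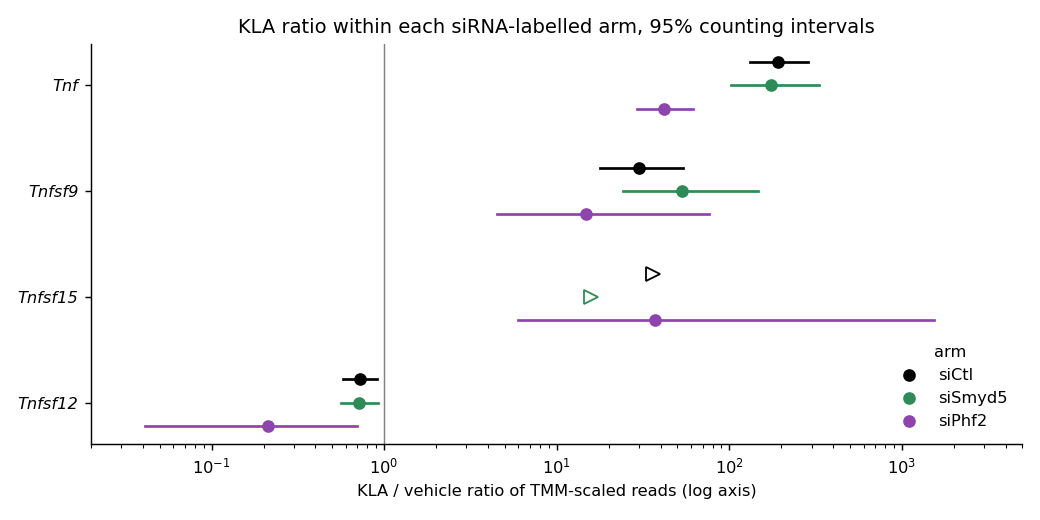
KLA to vehicle ratio of TMM-scaled reads (log axis) of the 4 ligands tested, within the siCtl (black), siSmyd5 (green) and siPhf2 (purple) arm, with 95% counting intervals; open triangles are lower bounds against 3 reads. Tnf in the siPhf2 arm, at 41.7, lies apart from 190 and 175 in the other arms, and Tnfsf12 lies below 1 in all 3.

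Of other ligands of the family, Tnfsf4 and Tnfsf10 are named after their values were seen. Tnfsf4, which costimulates T cells, had 0 reads with vehicle and 30, 9 and 0 reads with KLA in siCtl, siSmyd5 and siPhf2, at least 10.8-fold higher in siCtl and at least 3.22-fold higher in siSmyd5. The death ligand Tnfsf10 had 1, 0 and 1 reads with vehicle and 18, 8 and 3 with KLA. Both were under the filter; with no filter both passed as higher with KLA (edgeR adjusted p = 1.53e-07 and 0.000318). Tnfsf13, the partner of Tnfsf12 in BC096441, had 212, 245 and 37 reads with vehicle and 158, 168 and 7 with KLA, and at a log2 fold change of -0.50 it did not pass (adjusted p = 0.108).

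The dendritic cell markers also differed by agent, at a summed 0 to 4.92 CPM with vehicle and 10.6 to 14.4 CPM with KLA. Of these 4 markers 0 to 3 had reads in a library, and the higher sum rests on Zbtb46, with 0 to 1 read with vehicle and 2 to 20 with KLA. Ccr7 went the other way, from 11, 4 and 0 reads with vehicle to 4, 1 and 0 with KLA, while Flt3 was at 0 in every library and Xcr1 at 0 in all but siSmyd5 KLA. The part of these cells in the KLA values was not tested.

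The second comparison asked which ligands differed with the siSmyd5 label, averaged over vehicle and KLA. None of the 4 tested ligands passed in the averaged edgeR fit, and 0 had an unadjusted p under 0.05, where 1893 of all 7995 genes tested did. Of all genes tested 2.74% rose and 3.65% fell in that fit. DESeq2, limma-voom and limma on log2 values also called 0 ligands. Among all 7995 genes DESeq2 called only 3 higher and 2 lower, limma-voom 9 and 8, and limma 0. The log2 fold changes were -0.45 for Tnf (standard error 0.34, adjusted p = 0.454), 0.10 for Tnfsf9 (0.25, adjusted p = 0.840), -0.50 for Tnfsf15 (0.36, adjusted p = 0.438) and 0.44 for Tnfsf12 (0.22, adjusted p = 0.225).

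Library against library, Tnf stood at 0.748 of siCtl with vehicle (95% interval 0.356 to 1.49) and at 0.688 with KLA (0.654 to 0.724). The KLA value lies below equality by more than its counting error, but by less than 2-fold. Tnfsf12 stood at 1.37 of siCtl with vehicle (1.11 to 1.69) and 1.35 with KLA (1.04 to 1.75), and Tnfsf15 at 0.704 with KLA (0.483 to 1.01). Tnfsf9 stood at 0.644 with vehicle (0.205 to 1.76) and 1.15 with KLA (0.984 to 1.33). No ligand passed the size bound under either agent, where 2.93% of genes tested were higher and 5.89% lower with vehicle, and 2.26% and 4.24% with KLA.

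These calls depend on which libraries share the fit. Without the siPhf2 vehicle library Tnf fell by 0.53 on the log2 scale (adjusted p = 0.00514) and Tnfsf12 rose by 0.44 (adjusted p = 0.0175); without the siPhf2 KLA library the values were -0.53 (adjusted p = 0.00269) and 0.44 (adjusted p = 0.0173). Without both, Tnf was at -0.54 (adjusted p = 0.000559) and Tnfsf12 at 0.41 (adjusted p = 0.0285), where 13.3% of all genes tested rose and 14.2% fell. With the siCtl and siPhf2 names exchanged, Tnf was at -2.43 (edgeR adjusted p = 0.000139) and Tnfsf15 at -2.34 (adjusted p = 0.00282). In that fit 11.8% of all genes tested rose and 13.6% fell. The fits without 1 siPhf2 library called 14.6% to 14.7% of all genes tested higher and 12.9% lower. Without the siCtl KLA library Tnf was at 0.39 and Tnfsf15 at 1.96, on the other side of 0, and neither passed (adjusted p = 1.0 for both). The neutrophil marker S100a8 was higher in the siSmyd5 libraries (log2 fold change 1.25, edgeR adjusted p = 0.0378), at 23.8 and 19.9 CPM against 10.3 and 7.99 in siCtl. DESeq2, limma-voom and limma did not call it. S100a9 had at most 1 read in any library, and the part of neutrophils in the ligand values was not tested.

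The third comparison set the siPhf2- against the siCtl-labelled libraries. With TMM scaling Tnf rose by a log2 fold change of 1.97 (standard error 0.37, edgeR adjusted p = 0.00133) and Tnfsf15 by 1.84 (0.48, adjusted p = 0.0155), 2 of the 4 ligands tested, where 8.12% of all genes tested rose and 4.52% fell. Tnfsf9 was at 0.06 (0.37, adjusted p = 0.944) and Tnfsf12 at -0.06 (0.36, adjusted p = 0.938). Both rises turn round with the scaling: to the library total Tnf was at -0.18 and Tnfsf15 at -0.40, and to the tag totals behind the authors' values at -0.42 and -0.47. None of these values passed (edgeR adjusted p 0.233 to 0.674). Under these totals Tnfsf9 (-2.18 and -2.30) and Tnfsf12 (-2.19 and -2.58) fell instead, and the median of all genes moved from -0.13 to -2.26 and -2.60. With the total taken without Rn45s the median was -0.60, and Tnf and Tnfsf15 still passed as higher.

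With TMM scaling Tnf was 11-fold higher in siPhf2 than in siCtl with vehicle (95% interval 6.37 to 19.0) and 2.40-fold with KLA (2.22 to 2.60). Tnfsf15 was 3.41-fold higher with KLA (2.02 to 5.50). Scaled to the total, Tnf stood at 2.61 with vehicle and 0.503 with KLA, and Tnfsf15 at 0.715. The vehicle ratio of Tnf was thus above 1 under all 4 scalings plotted, while its KLA ratio was above 1 with TMM and without Rn45s (1.76) and below 1 with both totals. Tnfsf9 stood at 1.98 with vehicle (0.368 to 7.0) and 0.979 with KLA (0.626 to 1.47), and Tnfsf12 at 1.25 (0.790 to 1.90) and 0.367 (0.0747 to 1.09). These made 3 calls higher and 0 lower, where 11% of genes tested were higher and 9.01% lower with vehicle, and 8.02% and 7.29% with KLA.

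**Figure D3:**
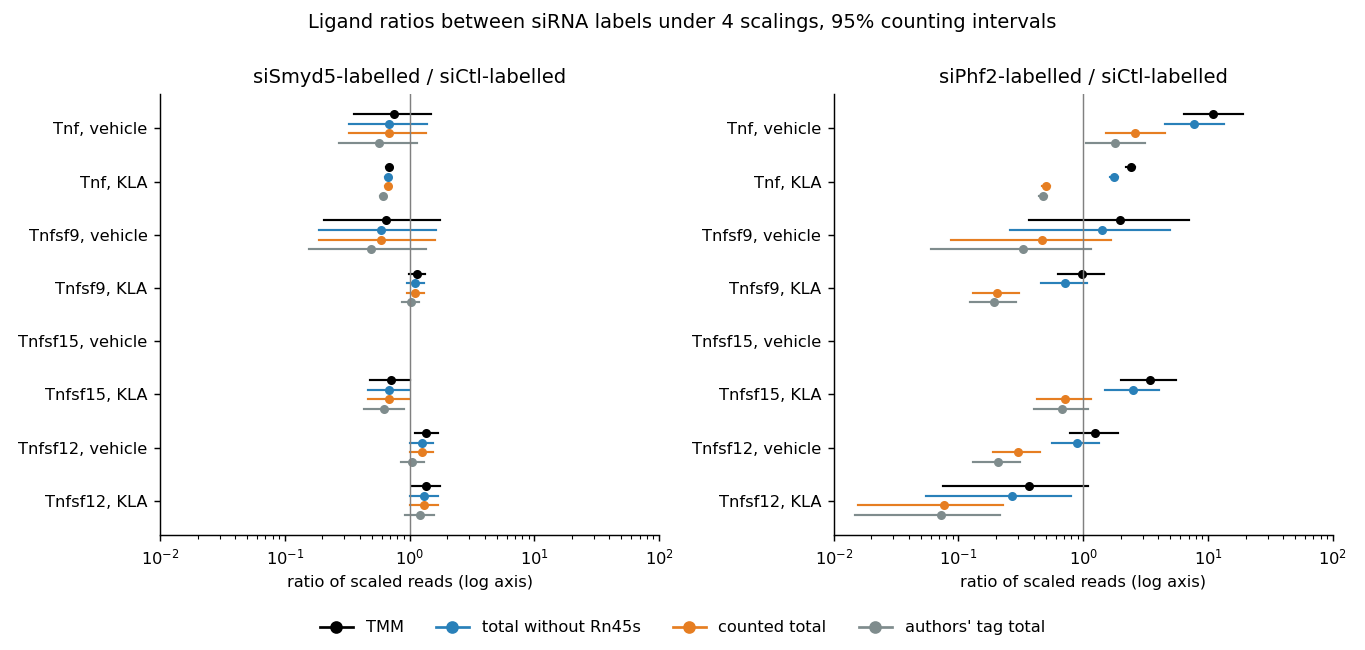
Ratio of scaled reads (log axis) of each tested ligand between siRNA labels under each agent, siSmyd5 over siCtl on the left and siPhf2 over siCtl on the right, with 95% counting intervals under TMM scaling, the total without Rn45s, the counted total and the authors' tag total; no ratio is drawn for Tnfsf15 with vehicle, where siCtl and siSmyd5 have 0 reads. The left ratios move little with the scaling, while Tnf with KLA on the right goes from 2.40 (TMM) to 0.476 (authors' tag total).

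Leaving out 1 library at a time, the siPhf2 log2 fold change of Tnf passed in all 6 fits but moved from 1.97 to 1.27 without siPhf2 vehicle, 2.92 without siCtl KLA and 3.41 without siPhf2 KLA. For Tnfsf15, leaving out siCtl vehicle raised its adjusted p to 0.133, leaving out siCtl KLA to 0.553, leaving out siSmyd5 KLA to 0.100 and leaving out siPhf2 KLA to 0.0969. Some marker genes also differed under the siPhf2 label with TMM scaling. Of 8 macrophage markers tested 2 rose and 1 fell, beside 8.12% and 4.52% of all genes tested. Csf1r (log2 fold change 1.37, edgeR adjusted p = 0.000795) and Mertk (1.60, adjusted p = 0.000190) were higher, but turned round with the totals. Fcgr1 (-1.18, adjusted p = 0.0426), with 10 and 5 reads in the siPhf2 libraries, was lower. Emr1 (-0.01), Cd68 (0.58), Itgam (0.18), Lyz2 (0.13) and Cd14 (0.32) did not pass. The stromal collagen Col3a1 was lower (-2.55, adjusted p = 7.96e-05), while Col1a1 (-0.62, adjusted p = 0.136) did not pass. The part of these marker differences in the ligand values was not tested. In these bulk libraries fewer cells of a type and less RNA per cell cannot be told apart.

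The receptors of the family were read in the same fits. Of 29 receptors listed 28 had a row and 11 were tested; 3 rose with KLA and 0 fell, where 11.2% of all genes tested rose and 4.6% fell. Their median log2 fold change was 0.17, against -0.03 over all genes tested. The risers were Cd40 (3.97), the receptor of the T cell ligand CD40L, Tnfrsf1b (2.59), the TNF receptor without a death domain, and the death receptor Fas (2.39, edgeR adjusted p = 0.000880). Fas, with 10, 3 and 0 vehicle reads, passed the filter on low reads only through its KLA libraries, so the count of 3 is a description. Tnfrsf1a, the death domain receptor of TNF, was at 0.17 (adjusted p = 0.688), with 223 reads in siCtl vehicle and 185 in siCtl KLA. Of the receptors of the ligands above, Ltbr was at -0.38 (adjusted p = 0.296), Tnfrsf12a at 0.25 (adjusted p = 0.550) and Tnfrsf14 at 1.02 (adjusted p = 0.0632), while Tnfrsf9 had at most 2 reads and Tnfrsf25 and Tnfrsf13c at most 1 in any library. Tnfsf9 and Tnfsf15 were thus measured with KLA in libraries where their receptors were at the detection limit.

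Of 29 genes of TNF receptor signalling 26 were tested, and 9 rose with KLA and 0 fell (median 0.61), beside 11.2% and 4.6% of all genes tested. The largest rises were those of the adaptor Traf1 (4.49), of Tnfaip3 (4.18), the ubiquitin-editing inhibitor A20, and of Cflar (3.48), which blocks caspase activation at death receptors. Tnip1 (2.02), a partner of A20, Rnf31 (1.38), the catalytic subunit of the linear ubiquitin ligase, and Traf5 (1.31) followed, and Birc3, Traf3 and Traf2 also passed. The adaptor Tradd was at -0.06 and the kinase Ripk1 at -0.15, and neither passed. Traf1, with 9, 3 and 2 vehicle reads, passed the filter on low reads only through its KLA libraries, so the count of 9 is a description. That count grew with 1 siPhf2 library left out and shrank with 1 siCtl or siSmyd5 library left out. It was 6 with DESeq2, 5 with limma and the larger pseudocount and 4 with limma and a pseudocount of 1. The share of all genes tested that rose moved the same way.

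Of 6 tested genes that process the TNF protein 3 rose with KLA and 0 fell (median 1.0), beside 11.2% and 4.6% of all genes tested. Rhbdf2, which carries the TNF sheddase to the cell surface, rose by 1.80, the protease Furin by 1.04 and the sheddase Adam17 itself by 0.96 (edgeR adjusted p = 0.00115), while Rhbdf1, Timp3 and Adam10, the last at -0.19, did not pass. Of 10 tested genes that control TNF mRNA 5 rose and 1 fell (median 0.69), beside the same shares of all genes tested, 11.2% and 4.6%. The RNase gene Zc3h12a (3.27), the kinase gene Mapkapk2 (2.35), the mRNA decay factor Zfp36 (1.17), the decay factor Rc3h1 (1.08) and the kinase gene Map3k8 (1.06) rose, and Zfp36l2 (-0.89, adjusted p = 0.0102), a relative of Zfp36, fell. That count of 5 shrank without any 1 of the siCtl or siSmyd5 libraries, as did the share of all genes tested that rose. Among 5 tested genes of a list of Tnfaip genes and Litaf, Tnfaip2 (1.77) rose, Tnfaip8l2 (-1.45) fell, and Tnfaip8, Tnfaip1 and Litaf did not pass (median -0.03). The shares of all genes tested were again 11.2% and 4.6%.

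**Figure D4:**
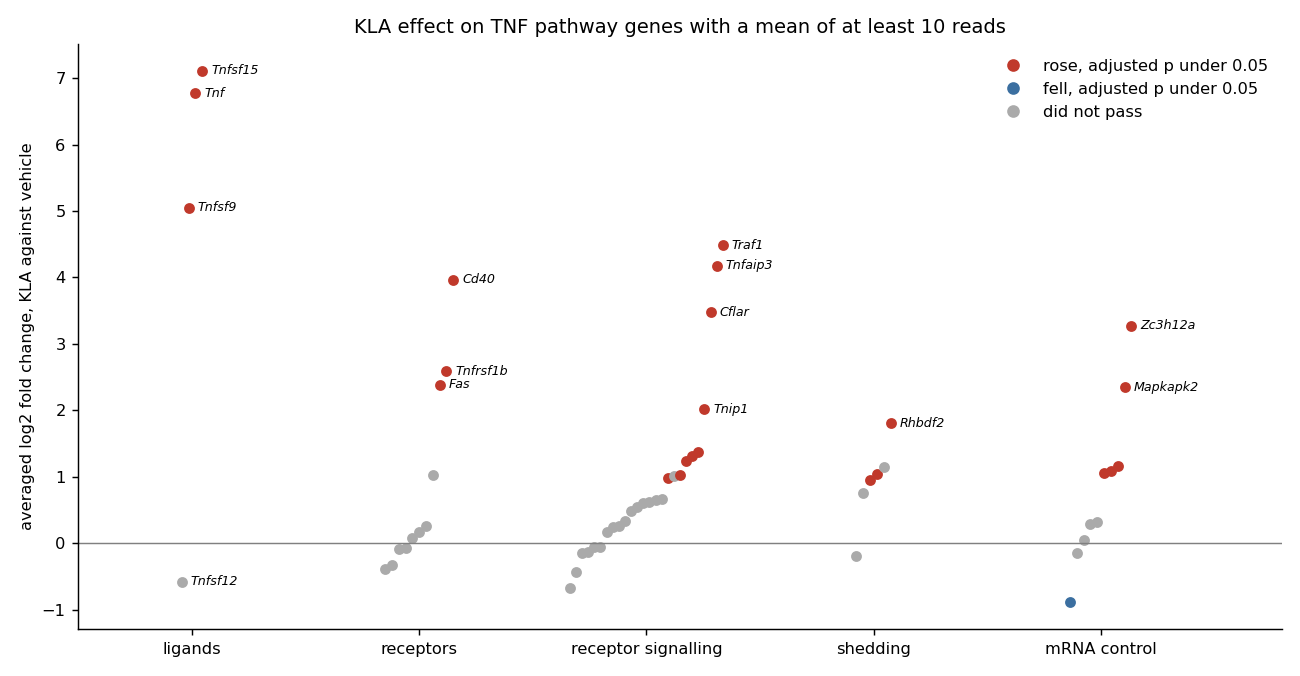
Averaged log2 fold change of KLA against vehicle for each tested gene of 5 groups (ligands, receptors, receptor signalling, shedding, mRNA control), red where it rose, blue where it fell and grey where it did not pass. Tnfsf15, Tnf and Tnfsf9 lie above every gene of the other groups, of which Traf1 at 4.49 is the highest.

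Under the siSmyd5 label 0 of the tested receptors, signalling and shedding genes passed in edgeR in either direction, beside 2.74% higher and 3.65% lower of all genes tested. At an unadjusted edgeR p under 0.05 were 1893 of all 7995 genes tested, with 2 of 11 receptors, 4 of 26 signalling genes and 1 of 6 shedding genes. DESeq2, limma-voom and limma called 0 of these receptors, signalling and shedding genes. These tools called few of the 7995 genes at all: DESeq2 3 higher and 2 lower, limma-voom 9 and 8, and limma 0. Without the siPhf2 vehicle or the siPhf2 KLA library 2 receptors rose and 2 fell, 1 signalling gene rose and 3 fell, and 2 shedding genes fell, in fits that called far more of all genes tested (14.6% to 14.7% higher and 12.9% lower). Of the mRNA control genes Zfp36l1 fell (log2 fold change -1.25, adjusted p = 0.0435), and the ligand Tnfsf13 rose (0.83, adjusted p = 0.0303), though neither was called by DESeq2, limma-voom or limma. Under the siPhf2 label, with TMM scaling, 3 receptors rose, Tnfrsf14 (2.39), Cd40 (2.08) and Tnfrsf1b (1.35, adjusted p = 0.000475), and 2 fell, Tnfrsf12a (-2.50) and Ltbr (-1.79), which had 1 to 4 reads in the siPhf2 libraries; of all genes tested 8.12% rose and 4.52% fell. Of the signalling genes 4 rose and 0 fell, the kinases Map3k5 (2.44) and Ikbkb (1.40), Cflar (1.19) and Rnf31 (1.02). Fewer genes of these groups were called without the siCtl vehicle, siCtl KLA or siSmyd5 KLA library, as were fewer of all genes tested. The calls of Tnfrsf12a and Ltbr as lower also depended on which 1 library was left out. Furin (1.0) and Zfp36 (1.49) rose too, Tnfaip2 (1.56) rose and Tnfaip8 (-1.86) fell. Scaled to the library total or to the authors' tag totals none of these groups held a gene that rose, and 9 of 11 receptors and 25 of 26 signalling genes fell, as did 91.9% and 96.1% of all genes tested.

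Tnf lies between Lta and Ltb on chromosome 17, with 1168 bases to Lta and 3085 bases to Ltb on mm9. Of the 5 tested neighbours, Ddx39b, Lst1, Aif1, Prrc2a and Bag6, 0 passed with KLA in edgeR or any other tool. Also 0 had an unadjusted edgeR p under 0.05 with KLA, where 2123 of all 7995 genes tested did. The log2 fold changes of the 5 neighbours were -0.45 to 0.28. Of all genes tested 11.2% rose and 4.6% fell in edgeR, so 0 of 5 lies near these shares. In siCtl Prrc2a stood at 322 CPM with vehicle and 364 with KLA and Lst1 at 14.8 and 13.3, while Tnf went from 11.5 to 2187 CPM. Lst1, a leukocyte gene, was higher under the siSmyd5 label in edgeR (1.62, adjusted p = 0.00431), with 66 and 61 reads against 36 and 30. DESeq2, limma-voom and limma did not call it. Lst1 had 0 reads in both siPhf2 libraries. Prrc2a was higher under the siPhf2 label with TMM scaling (0.78, adjusted p = 0.0315) and lower with the totals.

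**Figure D5:**
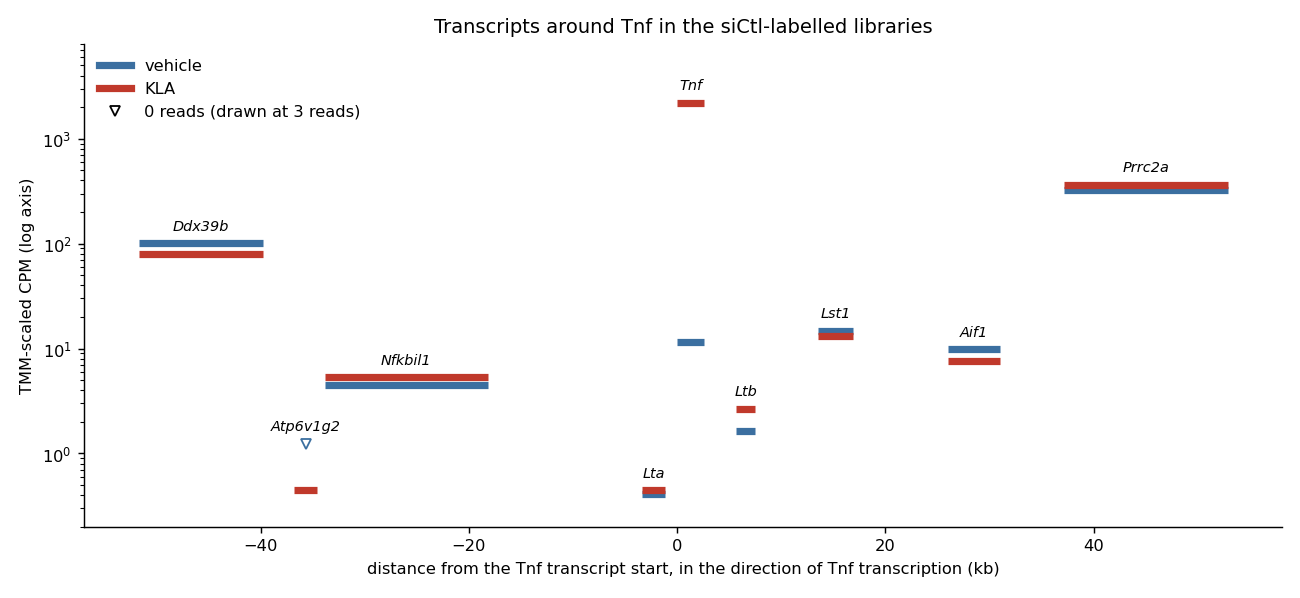
TMM-scaled CPM (log axis) of transcripts around Tnf in the siCtl vehicle (blue) and siCtl KLA (red) libraries, each drawn over its span in kilobases from the Tnf start in the direction of Tnf transcription; the open triangle is 0 reads drawn at 3 reads. Tnf moves from 11.5 to 2187, while Ddx39b, Lst1, Aif1 and Prrc2a move by less than 2-fold.

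The genes whose pattern over the 6 libraries was most like that of Tnf, among 3611 others with a mean of at least 50 reads, were the inflammasome sensor Nlrp3 (Pearson r 0.997 of log2 levels), Irg1 (0.996), which makes itaconate, the adenosine receptor Adora2a (0.995), Tnip1 (0.994) and the chemokine Cxcl10 (0.993). The 6 points share their libraries and form a vehicle and a KLA set, so r is a description. Nlrp3 stood at 12.3, 6.61 and 81.3 CPM with vehicle and 659, 688 and 1478 CPM with KLA in siCtl, siSmyd5 and siPhf2, with TMM scaling. Among the ligands r with Tnf was 0.969 for Tnfsf9 and -0.73 for Tnfsf12.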

How the data were processed

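The 6 libraries, 1 per siRNA and agent, were grouped by their titles. The authors deposited 1 table of signal, which per the file headers is the tags on each RefSeq transcript per 10000000 tags sequenced; HOMER and mm9 are named per the submitters' processing notes. The aligner, like the handling of strand and of multiply mapped reads, is not given in the sources used here, so reads of overlapping and antisense genes cannot be told apart. No sample column was left unused (0).

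Whole reads were recovered by dividing each value by the worth of 1 read (tolerance 0.02). With its own header total each siSmyd5 column was 100% whole. The siCtl columns gave 2.43% with their own and 100% with those printed for siPhf2, and the siPhf2 columns 1.13% and 0.761% with their own and 100% with those printed for siCtl. The reads do not depend on which entry is wrong.

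Averaged effects came from R 4.3.3 with edgeR 4.0.16 (TMM scaling, quasi-likelihood, additive siRNA and agent, 2-sided, threshold 0.05, mean of at least 10 reads, 7995 of 23282 symbols). The deposited unit is not counts; DESeq2 1.42.0, limma-voom and limma 3.58.1 on log2 of TMM-scaled values plus 15.2 or 1 CPM were alternatives. Standard errors are the fold change over the root of F. Ratios of single libraries carry exact conditional Poisson 95% intervals (scipy 1.17.1) and no p, and a floor of 3 reads per library; reads without molecular identifiers are not independent molecules. Scripts were tested on simulated data. Promoter windows and motifs came from the RefSeq table of GRCm38.p6.

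All 8 ligands are named; of the other lists, the genes that pass an averaged effect, up to the 6 largest per list and effect, the receptors of the ligands, Smyd5, Phf2, Rn45s and the 5 genes most like Tnf (log2 of the level plus 2 reads). The members and lists were chosen with earlier results of these data known.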

Additional observations from a re-analysis of the deposited data

Results flagged for a closer look

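Ligands whose ratio to siCtl lay on opposite sides of 1 under vehicle and KLA are listed here; the differences were not tested, and each value is 1 library against 1. Tnfsf9 stood at 0.644 of siCtl with vehicle and 1.15 with KLA under the siSmyd5 label, from 6 and 297 reads. Under the siPhf2 label Tnfsf9 stood at 1.98 with vehicle and 0.979 with KLA, from 3 and 25 reads. Tnfsf12 stood at 1.25 of siCtl with vehicle and 0.367 with KLA under the siPhf2 label, from 25 and 3 reads. The counting intervals of all these ratios include 1.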

How the results depend on the processing

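The KLA rises of Tnf, Tnfsf9 and Tnfsf15 kept their direction and passed in every alternative that tested them, 18, 18 and 17 in number, and 10 of the KLA ratios were called under every scaling, the length correction and the exchanged names. The siSmyd5 count of 0 ligands became 2 with the siCtl and siPhf2 names exchanged, where 11.8% of all genes tested rose and 13.6% fell. These were Tnf (log2 fold change -2.43, edgeR adjusted p = 0.000139) and Tnfsf15 (-2.34, adjusted p = 0.00282), both lower. Without both siPhf2 libraries it became 2, Tnf lower and Tnfsf12 higher, where 13.3% of genes rose and 14.2% fell. It also varied over fits without 1 library, as did the share of all genes called. The siPhf2 count of 2 higher ligands became 2 lower (0 higher) with scaling to the library total and to the authors' tag totals (added after seeing the data). The 2 lower were Tnfsf9 and Tnfsf12, where 91.9% and 96.1% of all genes tested fell. Tnf (edgeR adjusted p = 0.674 and 0.233) and Tnfsf15 (0.406 and 0.318) did not pass there. With names exchanged Tnf and Tnfsf15 were lower, an outcome fixed in advance because the exchange only turns the sign of this comparison. The count was 1 with a mean of at least 50 reads, where Tnfsf15 is not tested. It was 1 with limma and the larger pseudocount and 0 with limma and a pseudocount of 1. It also changed in some fits without 1 library. The 3 siRNA ratios called higher became 4 calls with the library total (1 higher, 3 lower), 4 with the authors' tag totals (0 and 4) and 7 with names exchanged (1 and 6). In that order of the 3 settings the siPhf2 log2 fold change was -0.18, -0.42 and -1.97 for Tnf and -0.40, -0.47 and -1.84 for Tnfsf15, and -2.18 and -2.30 under the 2 totals for Tnfsf9. The siPhf2 to siCtl ratio with KLA was 0.503, 0.476 and 0.416 for Tnf and 0.715, 0.675 and 0.293 for Tnfsf15, and with names exchanged that of Tnf with vehicle was 0.0912. Beyond the scaling itself, the cause was not tested. No paired analysis was possible because each group is 1 library and the labels give no replicate numbers. Depth limits Lta, Ltb, Tnfsf13b and Tnfsf14, and every siPhf2 level near 3 reads, which are 12.2 CPM with vehicle and 21.6 CPM with KLA.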
